A study of Mus musculus with 14 samples.

Results

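The genes described here are 9 erythroid genes chosen by symbol: the haemoglobin chain genes *Hba-a1*, *Hba-a2*, *Hbb-bs* and *Hbb-bt*, the haem synthesis gene *Alas2*, the membrane protein gene *Slc4a1*, the erythropoietin receptor gene *Epor*, and the transcription factor genes *Klf1* and *Gata1*. They are 9 of the 55401 genes counted in each sample, and all 9 were among the 17671 genes that passed the filter on low counts. The series-wide matrix lists 8 of the 9 symbols, and *Klf1* was taken from the per-sample counts by its Ensembl identifier. Marrow plugs of the distal tibia, a site rich in bone marrow adipose tissue, came from male mice of a mixed C57BL6/SJL strain aged 24 weeks, and each sample pooled the plugs of a pair of mice. BMAd-Pnpla2-/- mice lack *Pnpla2*, which encodes the lipase that begins triacylglycerol breakdown, in bone marrow adipocytes (BMAds), and BMAd-Pnpla2+/+ mice are their controls. Mice were fed ad libitum (AL) or given 30% caloric restriction (CR) over 6 weeks, which gave 4 groups: BMAd-Pnpla2+/+ AL (n = 4), BMAd-Pnpla2+/+ CR (n = 4), BMAd-Pnpla2-/- AL (n = 3) and BMAd-Pnpla2-/- CR (n = 3). The deletion rests on a Cre in the *Adipoq* locus that an FLPo recombinase from the *Osterix* locus activates, and the insertion itself lowers adiponectin protein. The paper states that mice of both genotypes carried the FLPo and Cre insertions. The controls lacked the floxed *Pnpla2* alleles, which are those that Cre can remove. The Cre is aimed at adipocytes and not at erythroid cells, and the question addressed here was whether erythroid transcripts of the same plug changed with diet, with BMAd genotype, or with both.

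Red blood cells form in the marrow from progenitors that divide, fill with haemoglobin and lose their nucleus. GATA1 and KLF1 switch on the erythroid programme, erythropoietin acting through its receptor keeps the late progenitors alive, ALAS2 makes the first step of haem synthesis in these cells, and band 3, the product of *Slc4a1*, carries anions across the red cell membrane and anchors the cytoskeleton. Adult mouse haemoglobin joins α chains from *Hba-a1* and *Hba-a2* with β chains from *Hbb-bs* and *Hbb-bt*. In a bulk plug, fewer erythroid cells and less RNA per erythroid cell cannot be told apart.

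The members of each globin pair are near copies of each other, and the stretches around the base that separates their coding sequences are printed because the counts of each pair depend on telling them apart. *Hba-a1* lies on the forward strand at chr11:32283511-32284465 and *Hba-a2* at chr11:32296489-32297298 of GRCm38 (mm10). Their coding sequences of 426 bases differ at 1 base, C381T, counted from 1 at the start codon with the base of *Hba-a1* first. *Hbb-bs* lies on the reverse strand at chr7:103826534-103828096 and *Hbb-bt* at chr7:103812524-103813996. Their coding sequences of 441 bases also differ at 1 base, C417T, with the base of *Hbb-bs* first. The lines below read 5′ to 3′ on the coding strand, lie in coding exons, and have the differing base in capitals.
Hba-a1, chr11:32284313-32284373, forward strand: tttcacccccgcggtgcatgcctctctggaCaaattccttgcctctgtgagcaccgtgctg
Hba-a2, chr11:32297130-32297190, forward strand: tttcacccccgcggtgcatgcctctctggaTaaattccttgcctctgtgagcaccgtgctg
Hbb-bs, chr7:103826668-103826722, reverse strand: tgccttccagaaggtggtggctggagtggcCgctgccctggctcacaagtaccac
Hbb-bt, chr7:103812659-103812713, reverse strand: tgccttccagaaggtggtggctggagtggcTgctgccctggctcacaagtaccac
Of all stretches of 100 bases, the read length, 56.5% of the *Hba-a1* transcript and 74.5% of the *Hba-a2* transcript also occur in the other gene of the pair. For the β genes these shares were 62.6% for *Hbb-bs* and 54.8% for *Hbb-bt*. The gene counts hold uniquely mapped read pairs, so the split within a pair rests mostly on the ends outside the coding sequence and is uncertain. Pairs that lie wholly in a shared stretch are left out of both genes, and so of their sum as well. Read pairs mapped to several places made up 6.10% and 5.79% of all pairs in BMAd-Pnpla2+/+ CR replicates 2 and 3, and 7.55% to 11.3% in the other 12 samples.

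The promoters of 8 members had an entry in the RefSeq table (GRCm38.p6), and 4 are printed to stand for the α chain, β chain, transcription factor and haem synthesis genes. The letters searched on both strands were GATAA, the core of a GATA site, CACCC, the core of a KLF1 site, CCAAT and TATAA, none of which contains another. In the 250 bases before the start, GATAA occurred in 7 of the 8 members, all but *Gata1*, and in 22.6% of 32851 promoters. CACCC occurred in 8 of 8 members and 52% of promoters, CCAAT in 5 of 8 and 33.8%, and TATAA in 5 of 8 and 22.8%. Matches are in capitals, either strand, in the parts of the 120 bases before the start that lie in no annotated exon. The *Hbb-bs* stretch lies outside exons but inside the annotated span of its gene.
Hba-a2, chr11:32296372-32296488, forward strand: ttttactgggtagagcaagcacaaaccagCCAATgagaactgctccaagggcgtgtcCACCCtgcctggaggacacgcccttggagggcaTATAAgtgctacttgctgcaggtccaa
Hbb-bs, chr7:103827929-103828011, reverse strand: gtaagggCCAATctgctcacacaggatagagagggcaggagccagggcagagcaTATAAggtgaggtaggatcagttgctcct
Klf1, chr8:84901862-84901927, forward strand: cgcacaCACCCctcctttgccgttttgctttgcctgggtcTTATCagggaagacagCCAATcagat
Alas2, chrX:150547297-150547374, forward strand: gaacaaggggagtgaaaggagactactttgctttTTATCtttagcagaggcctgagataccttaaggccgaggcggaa
The *Hba-a1* and *Hba-a2* promoters shared an identical run of 247 bases, whereas the longest run shared by *Hbb-bs* and *Hbb-bt* was 14 bases. A match of letters is a description of the sequence and was not tested as a binding site.

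Each sample held 25282327 to 27475056 read pairs, of which 18898324 to 21665553 were assigned to genes without regard to strand. The 3 BMAd-Pnpla2-/- CR libraries stood apart: 50.1% to 50.5% of their strand-assigned reads lay on the first strand, against 4.30% to 4.62% in the other 11. Library type and group therefore cannot be told apart in any comparison that uses BMAd-Pnpla2-/- CR. Levels are given as CPM, each count divided by the library's total of gene counts and rescaled alike in all samples, with library totals adjusted by the trimmed mean of M-values (TMM). Within the BMAd-Pnpla2+/+ CR group, replicates 2 and 3 were the lowest samples for all 9 genes, and replicate 4 was the highest for 8 of 9. *Pnpla2* itself measured 174 to 301 CPM in BMAd-Pnpla2+/+ AL, 502 to 1015 in BMAd-Pnpla2+/+ CR, 131 to 170 in BMAd-Pnpla2-/- AL and 177 to 267 in BMAd-Pnpla2-/- CR, so that the genotypes did not overlap under either diet.

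The haemoglobin genes were by far the most abundant of the 9. Per kilobase of exon, the mean level in BMAd-Pnpla2+/+ AL was 16560 ± 4304 CPM per kilobase (SD, n = 4) for *Hba-a1*, 8258 ± 1613 for *Hbb-bs*, 3939 ± 1647 for *Hba-a2* and 1210 ± 443 for *Hbb-bt*. *Slc4a1* followed at 671 ± 229, *Alas2* at 382 ± 125, *Klf1* at 124 ± 48.0, *Gata1* at 55.8 ± 15.6 and *Epor* at 52.9 ± 13.2. In this group the ranges of *Hbb-bt* and *Slc4a1*, of *Slc4a1* and *Alas2*, and of *Gata1* and *Epor* overlapped, and the other neighbours in the order did not. The first 7 places were held by the same genes in the same order in all groups but BMAd-Pnpla2-/- CR, where the unstranded level of *Hbb-bs*, 20242 ± 5901 CPM per kilobase (SD, n = 3), stood beside 20076 ± 3785 for *Hba-a1*. Together the 4 haemoglobin genes took 1.49% to 2.64% of gene counts in BMAd-Pnpla2+/+ AL, 0.964% to 4.47% in BMAd-Pnpla2+/+ CR, 3.19% to 3.995% in BMAd-Pnpla2-/- AL and 2.79% to 4.61% in BMAd-Pnpla2-/- CR.

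**Figure D1:**
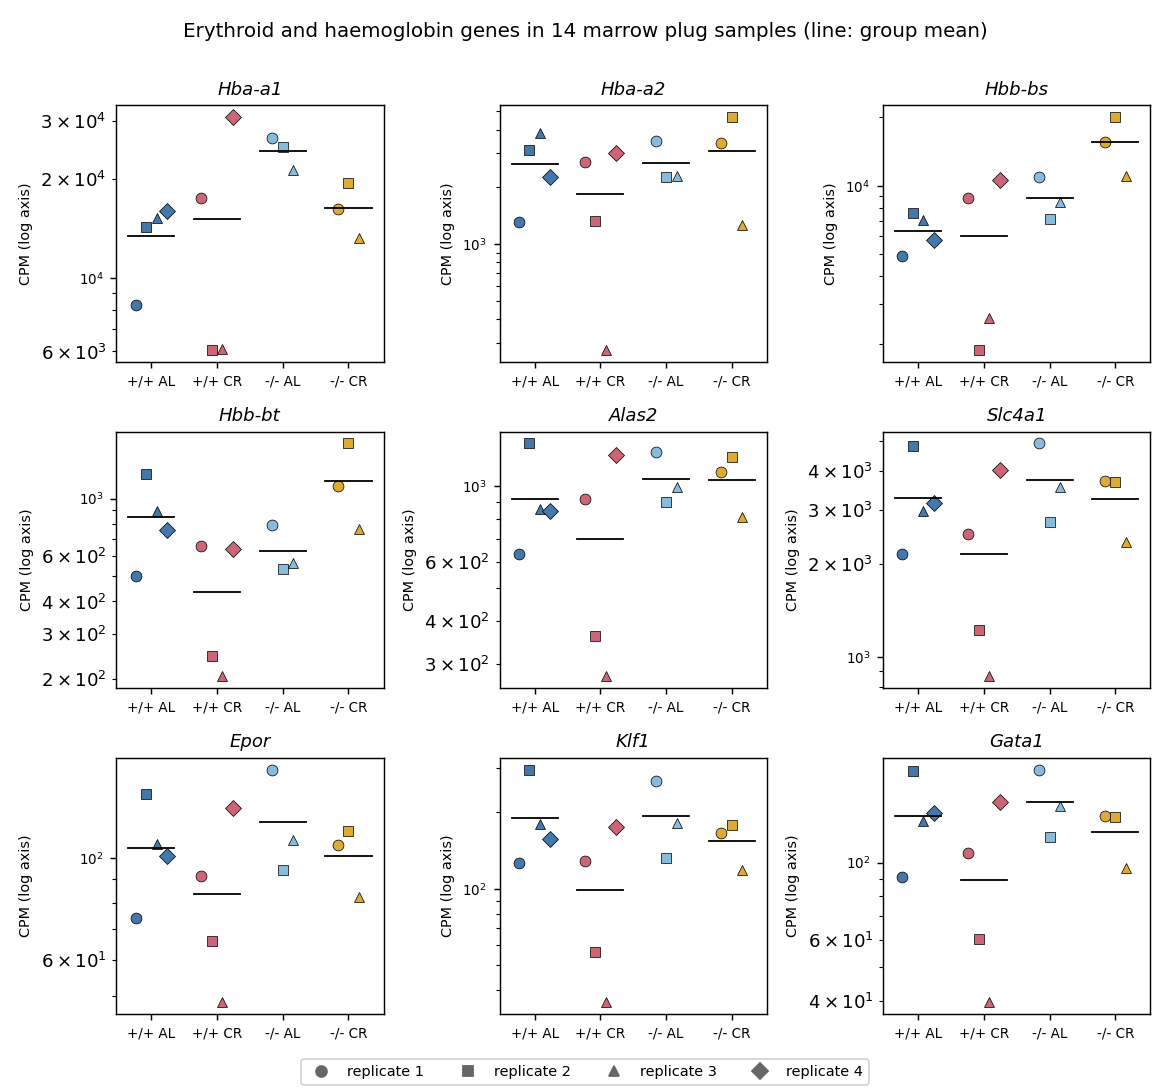
Unstranded CPM of each of the 9 genes (vertical log axis) in the 14 samples, by group (horizontal axis), with a marker shape for each replicate number and a line at the group mean. In BMAd-Pnpla2+/+ CR the square and triangle (replicates 2 and 3) lie at the bottom in every panel, and the diamond (replicate 4) lies at the top in 8 of 9.

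None of the 9 genes passed an adjusted p (padj) of 0.05 in any of the 5 comparisons by edgeR's quasi-likelihood test. In BMAd-Pnpla2+/+ mice, CR against AL called 26% of all genes tested (4602 of 17671), against 0 of the 9, with an unadjusted p under 0.05 for 2 of them and for 40.4% of all genes. In BMAd-Pnpla2-/- mice the background was 11.6% (2052 genes), with 0 of 9 called and 0 at an unadjusted p under 0.05, against 29.1% of all genes. Between the genotypes, 0% of genes were called in mice fed AL (0 of the 9 and 3.96% of all genes at an unadjusted p under 0.05) and 0.0113% under CR (2 of the 9 and 23.2% of all genes). The responses of the 2 genotypes differed for 0% of genes, with 1 of the 9 and 10.4% of all genes at an unadjusted p under 0.05. The 2 genes called between the genotypes under CR, named because they are so few, were *Pnpla2* and *Ppib*. The standard errors of the 9 were wide: in CR against AL in BMAd-Pnpla2+/+ mice their median was 0.41 on the log2 scale, against 0.14 over all genes averaging 50 counts or more.

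Of the α chain genes, *Hba-a1* measured 8305, 14296, 15230 and 15957 CPM in BMAd-Pnpla2+/+ AL replicates 1 to 4, and 17468, 6067, 6090 and 30724 in BMAd-Pnpla2+/+ CR replicates 1 to 4. In BMAd-Pnpla2-/- mice it measured 26570, 24868 and 21227 CPM fed AL and 16226, 19412 and 13267 under CR. The 3 BMAd-Pnpla2-/- AL samples lay above all 4 BMAd-Pnpla2+/+ AL samples and above all 3 BMAd-Pnpla2-/- CR samples, and in the other comparisons the groups overlapped. With AL feeding the log2 fold change of the genotypes was 0.85 ± 0.47 (SE; padj = 1), where the groups of 2.32% of all genes did not overlap in that direction. For CR against AL it was 0.17 ± 0.43 (padj = 0.798) in BMAd-Pnpla2+/+ and -0.57 ± 0.50 (padj = 0.488) in BMAd-Pnpla2-/- mice, where 17.4% of all genes were lower without overlap.

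*Hba-a2* measured 1303, 3110, 3849 and 2246 CPM in BMAd-Pnpla2+/+ AL replicates 1 to 4, and 2691, 1314, 277 and 3021 in BMAd-Pnpla2+/+ CR. It measured 3501, 2250 and 2265 CPM in BMAd-Pnpla2-/- AL and 3383, 4655 and 1264 in BMAd-Pnpla2-/- CR. All pairs of groups overlapped, and no padj was below 0.482. The level in BMAd-Pnpla2+/+ CR replicate 3 was the lowest of the 14, and there *Hba-a2* was 4.34% of the α counts, against 8.30% to 20.2% in the other 13 samples. Its log2 fold change was -0.53 ± 0.58 (SE; padj = 0.521) for CR against AL in BMAd-Pnpla2+/+ mice and 0.76 ± 0.62 (padj = 0.482) between the genotypes under CR.

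Of the β chain genes, *Hbb-bs* measured 4893, 7620, 7083 and 5775 CPM in BMAd-Pnpla2+/+ AL replicates 1 to 4, and 8873, 1893, 2607 and 10608 in BMAd-Pnpla2+/+ CR. It measured 10892, 7124 and 8507 CPM in BMAd-Pnpla2-/- AL and 15544, 20079 and 11014 in BMAd-Pnpla2-/- CR. The unstranded level of BMAd-Pnpla2-/- CR lay above both BMAd-Pnpla2+/+ CR and BMAd-Pnpla2-/- AL without overlap. The log2 fold change was 1.38 ± 0.48 (SE; padj = 0.127) between the genotypes under CR and 0.81 ± 0.52 (padj = 0.326) for CR against AL in BMAd-Pnpla2-/- mice. The groups of 8.65% and 20.5% of all genes, respectively, did not overlap in that direction. In BMAd-Pnpla2+/+ mice CR against AL gave -0.08 ± 0.45 (padj = 0.907).

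*Hbb-bt*, the less abundant β gene, measured 504, 1249, 898 and 752 CPM in BMAd-Pnpla2+/+ AL replicates 1 to 4, and 654, 247, 206 and 639 in BMAd-Pnpla2+/+ CR. It measured 787, 536 and 565 CPM in BMAd-Pnpla2-/- AL and 1117, 1633 and 765 in BMAd-Pnpla2-/- CR. All 4 BMAd-Pnpla2+/+ CR samples were below the 3 BMAd-Pnpla2-/- CR samples in unstranded counts, as was so in this direction for 8.65% of all genes. They were also below 3 of the 4 BMAd-Pnpla2+/+ AL samples. *Hbb-bt* had the smallest padj of the 9 genes in 4 of the 5 comparisons. The log2 fold change was -0.96 ± 0.39 (SE; padj = 0.0838) for CR against AL in BMAd-Pnpla2+/+ mice, 0.90 ± 0.45 (padj = 0.208) in BMAd-Pnpla2-/- mice, and 1.43 ± 0.42 (padj = 0.09) between the genotypes under CR. The response of BMAd-Pnpla2-/- minus that of BMAd-Pnpla2+/+ mice was 1.86 ± 0.60 (SE; padj = 0.345). *Hbb-bt* made up 9.33% to 14.1% of β counts in BMAd-Pnpla2+/+ AL and 5.68% to 11.5% in BMAd-Pnpla2+/+ CR. Its share was 6.23% to 6.997% in BMAd-Pnpla2-/- AL and 6.49% to 7.52% in BMAd-Pnpla2-/- CR, both below all BMAd-Pnpla2+/+ AL samples.

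The β genes of the BMAd-Pnpla2-/- CR libraries were also unusual in the strand of their reads. In these libraries 72.4% to 76.3% of *Hbb-bs* pairs and 68.0% to 69.5% of *Hbb-bt* pairs lay on the first strand. The share was 53.0% to 59.1% for *Hba-a2* and 44.9% to 49.7% for *Hba-a1*, and between 48.8% and 54.0% for the 5 genes outside the globins. In the other 11 libraries no gene of the 9 exceeded 2.36%. With unstranded counts, β genes made up 44.8% to 47.4% of haemoglobin counts in BMAd-Pnpla2-/- CR and 22.0% to 36.0% in the other 11 samples, without overlap. With second-strand counts alone, a choice made after seeing the data, the share was 27.7% to 34.2% in BMAd-Pnpla2-/- CR, within the 22.0% to 35.9% of the others. On that strand *Hbb-bs* measured 7328 ± 2576 CPM (SD, n = 3) in BMAd-Pnpla2-/- CR against 5832 ± 4240 (SD, n = 4) in BMAd-Pnpla2+/+ CR, which gave a log2 difference of 0.33 (padj = 0.668) under CR. For *Hbb-bt* it was 0.68 (padj = 0.274), and the difference of the CR responses was 1.12 (padj = 0.332). The *Hbb-bt* ranges under CR overlapped on that strand, at 428 to 958 CPM in BMAd-Pnpla2-/- and 202 to 630 CPM in BMAd-Pnpla2+/+ mice. The log2 differences for CR against AL in BMAd-Pnpla2-/- mice were -0.23 (padj = 0.791) for *Hbb-bs* and 0.15 (padj = 0.841) for *Hbb-bt*. Second-strand counts treat the library types differently, since they leave out the 50.1% to 50.5% of BMAd-Pnpla2-/- CR reads on the first strand. That fit called 3432 of 18616 genes between the genotypes under CR, against 2 of 17671 with unstranded counts.

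**Figure D2:**
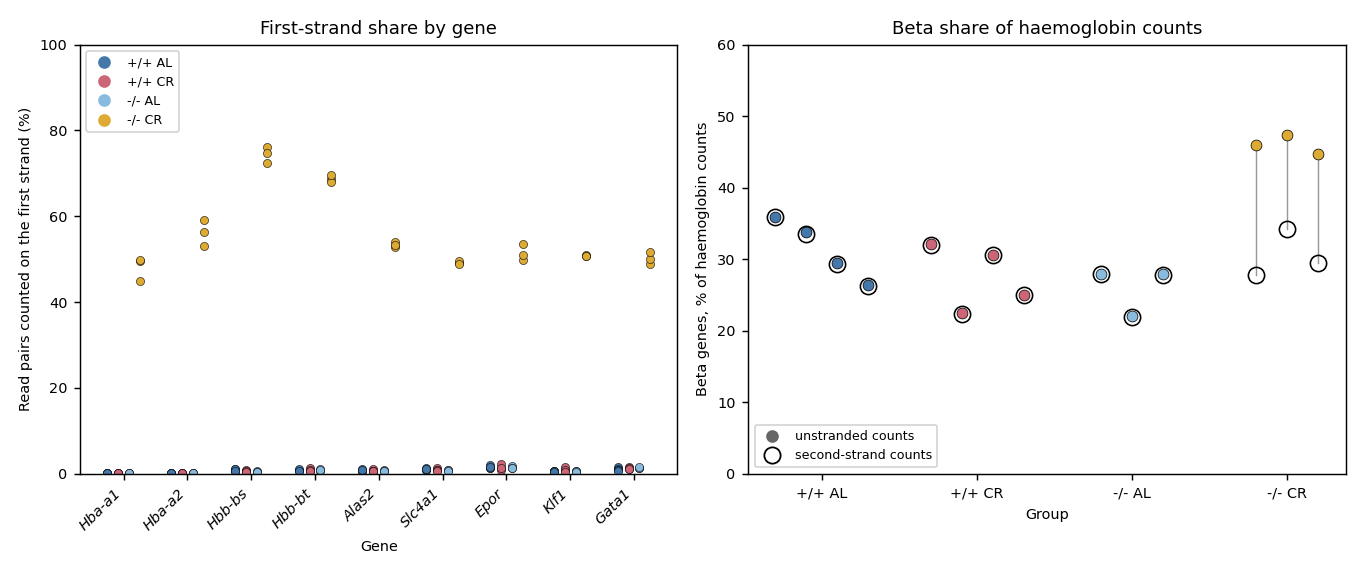
Left, the share of each gene's strand-assigned read pairs that lay on the first strand (percent), with a point per sample coloured by group. Right, β genes as a percentage of haemoglobin counts by group, with filled points for unstranded counts and open rings for second-strand counts of the same sample. The 3 BMAd-Pnpla2-/- CR samples lie at 44.8% to 47.4% unstranded and at 27.7% to 34.2% on the second strand, whereas point and ring coincide in the other groups.

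*Alas2*, at chrX:150547375-150570638 on the forward strand, measured 631, 1340, 858 and 845 CPM in BMAd-Pnpla2+/+ AL replicates 1 to 4, and 921, 362, 275 and 1239 in BMAd-Pnpla2+/+ CR. It measured 1268, 897 and 995 CPM in BMAd-Pnpla2-/- AL and 1103, 1223 and 812 in BMAd-Pnpla2-/- CR. All groups overlapped, with log2 fold changes from -0.39 ± 0.40 (SE; padj = 0.479) for CR against AL in BMAd-Pnpla2+/+ mice to 0.58 ± 0.43 (padj = 0.431) between the genotypes under CR. *Alas2* overlaps *Apex2* on the other strand by 372 exonic bases. The unstranded count was 73.4% to 81.2% of the second-strand count in the 11 stranded libraries. In BMAd-Pnpla2-/- CR replicates 1 to 3 it was 20916, 23248 and 16556. The first-strand counts of these replicates were 14153, 16863 and 11469 and the second-strand counts 12648, 14339 and 10081, which sum to more. The unstranded level of *Alas2* is therefore an underestimate in both library types.

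*Slc4a1*, on the reverse strand at chr11:102348824-102366203, measured 2160, 4833, 2978 and 3147 CPM in BMAd-Pnpla2+/+ AL replicates 1 to 4, and 2495, 1227, 868 and 4040 in BMAd-Pnpla2+/+ CR. It measured 4916, 2739 and 3548 CPM in BMAd-Pnpla2-/- AL and 3707, 3689 and 2359 in BMAd-Pnpla2-/- CR. Again BMAd-Pnpla2+/+ CR spanned the widest range, 4.65-fold from lowest to highest, against 1.57-fold to 2.24-fold in the other groups. CR against AL gave -0.60 ± 0.41 (SE; padj = 0.283) in BMAd-Pnpla2+/+ mice and -0.20 ± 0.47 (padj = 0.822) in BMAd-Pnpla2-/- mice.

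*Epor*, on the reverse strand at chr9:21958897-21963506, was among the least abundant of the 9 genes. It measured 74.1, 138, 108 and 101 CPM in BMAd-Pnpla2+/+ AL replicates 1 to 4, and 91.5, 65.8, 48.3 and 129 in BMAd-Pnpla2+/+ CR. It measured 156, 94.3 and 110 CPM in BMAd-Pnpla2-/- AL and 107, 115 and 82.4 in BMAd-Pnpla2-/- CR. No groups were separate, and its log2 fold changes lay between -0.33 ± 0.27 (SE; padj = 0.381) for CR against AL in BMAd-Pnpla2+/+ mice and 0.28 ± 0.29 (padj = 0.599) between the genotypes under CR. Its standard errors were the smallest of the 9 in each comparison.

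Of the transcription factor genes, *Klf1* (forward strand, chr8:84901928-84905291) measured 126, 295, 180 and 158 CPM in BMAd-Pnpla2+/+ AL replicates 1 to 4, and 129, 56.7, 35.8 and 175 in BMAd-Pnpla2+/+ CR. It measured 266, 132 and 181 CPM in BMAd-Pnpla2-/- AL and 165, 179 and 118 in BMAd-Pnpla2-/- CR. *Klf1* had the next smallest padj to *Hbb-bt* for CR against AL in BMAd-Pnpla2+/+ mice, at -0.94 ± 0.43 (SE; padj = 0.116), and its groups overlapped. In BMAd-Pnpla2-/- mice the value was -0.33 ± 0.49 (padj = 0.702), and its response in BMAd-Pnpla2-/- exceeded that in BMAd-Pnpla2+/+ mice by 0.61 ± 0.64 (padj = 0.734).

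*Gata1*, on the reverse strand at chrX:7959260-7978071, measured 90.7, 183, 132 and 139 CPM in BMAd-Pnpla2+/+ AL replicates 1 to 4, and 106, 60.3, 39.6 and 149 in BMAd-Pnpla2+/+ CR. It measured 185, 118 and 145 CPM in BMAd-Pnpla2-/- AL and 137, 135 and 96.8 in BMAd-Pnpla2-/- CR. CR against AL gave -0.62 ± 0.34 (SE; padj = 0.188) in BMAd-Pnpla2+/+ mice and -0.28 ± 0.39 (padj = 0.674) in BMAd-Pnpla2-/- mice. All its groups overlapped. Megakaryocytes also express *Gata1*, and 6 of 9 tested megakaryocyte markers fell with CR in BMAd-Pnpla2+/+ mice, against 10.9% of all genes. The summed level of the list there was 2505 to 4340 CPM fed AL and 1189 to 2411 under CR. Their part in the *Gata1* values was not tested.

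**Figure D3:**
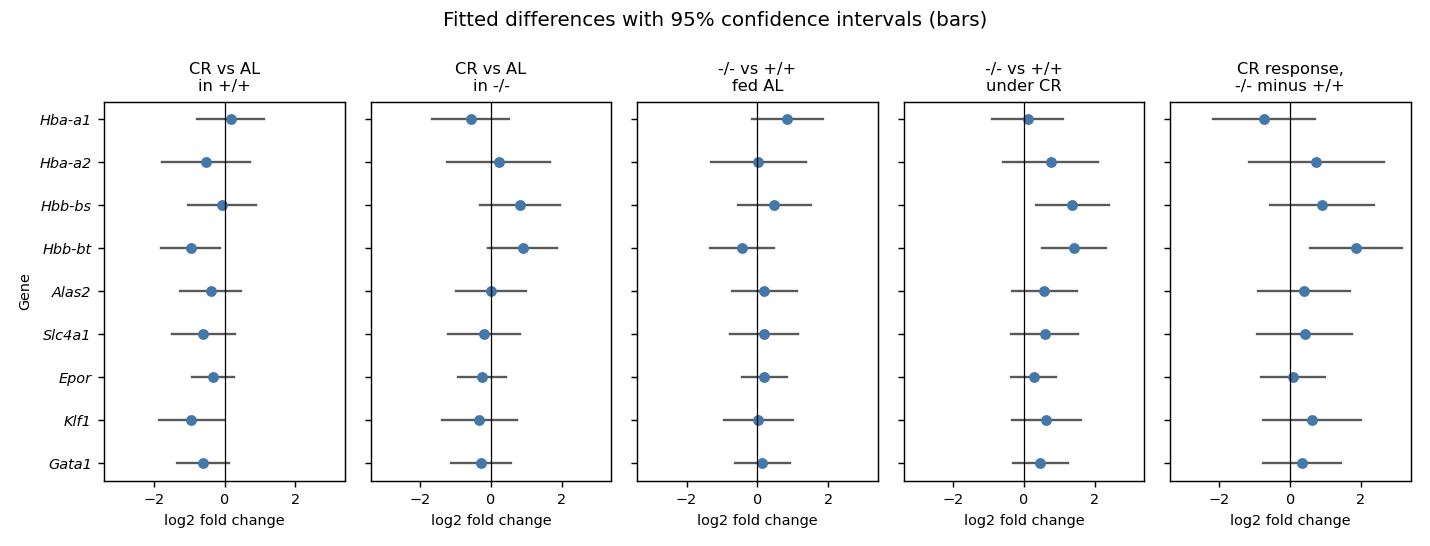
Log2 fold change of the 9 genes (points) with 95% confidence intervals (bars) in the 5 comparisons, from unstranded counts. Intervals that leave out 0 are those of *Hbb-bt* and *Klf1* for CR against AL in BMAd-Pnpla2+/+ mice, of *Hbb-bs* and *Hbb-bt* between the genotypes under CR, and of *Hbb-bt* for the difference of the responses. No padj was under 0.05.

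Over the 9 genes, the median log2 fold change of CR against AL was -0.53 in BMAd-Pnpla2+/+ mice, with 8 of 9 negative, against a median of 0.00 and 49.8% negative over all genes tested. It was -0.20 in BMAd-Pnpla2-/- mice, with 6 of 9 negative, against 0.05 and 45.5%. Between the genotypes it was 0.19 in mice fed AL and 0.59 under CR, against -0.01 and -0.01 over all genes. With second-strand counts alone, the median of CR against AL was -0.26 in BMAd-Pnpla2-/- mice, with 8 of 9 negative, and -0.53 in BMAd-Pnpla2+/+ mice, also with 8 of 9. On that strand the median between the genotypes under CR was 0.39, in a fit that treats the library types differently. The comparisons share samples, so these medians are not independent of each other. The 9 genes also varied together, with Pearson's r of log2 CPM from 0.609 to 0.991 between pairs. Their signs are therefore not separate observations. For CR against AL in BMAd-Pnpla2+/+ mice, the 95% intervals ran from -0.77 to 1.10 for *Hba-a1*, from -1.49 to 0.28 for *Slc4a1* and from -0.92 to 0.26 for *Epor*, so changes of these sizes in both directions were not distinguishable from 0 with these samples.

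The values for BMAd-Pnpla2+/+ CR depended on which of its libraries were used. When replicate 4, the highest, was left out, 4 of the 9 genes fell with CR in BMAd-Pnpla2+/+ mice: *Klf1* by 1.36 on the log2 scale (padj = 0.0248), *Hbb-bt* by 1.21 (padj = 0.0416), *Slc4a1* by 1.10 (padj = 0.0364) and *Gata1* by 0.99 (padj = 0.0288). In that fit 2785 of 17618 genes were called lower, and all 9 values were negative. Without replicate 1, *Hbb-bt* fell by 1.27 (padj = 0.0387), in a fit that called 2414 of 17606 genes lower. When replicates 2 and 3, the lowest for these genes, were both left out, a choice made after seeing the data, the median of the 9 was 0.07, with 5 positive and 4 negative and none called. That fit called *Hbb-bs* higher with CR in BMAd-Pnpla2-/- mice, by 0.81 (padj = 0.0347), as 1 of 1536 genes called higher among 17939. This call came at an unchanged fold change and in the libraries with unusual strand shares. Between the genotypes under CR, *Hbb-bs* was higher by 1.80 (padj = 0.0342) and *Hbb-bt* by 1.67 (padj = 0.0347) in BMAd-Pnpla2-/- mice without replicate 4. That fit called 1156 of 17618 genes higher and 2112 in either direction, against 2 with all samples, and these calls use the same libraries, with 68.0% to 76.3% of the pairs of both genes on the first strand. Without replicates 2 and 3 these were 0.67 (padj = 0.299) and 0.86 (padj = 0.348), and the median of the 9 was -0.01.

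**Figure D4:**
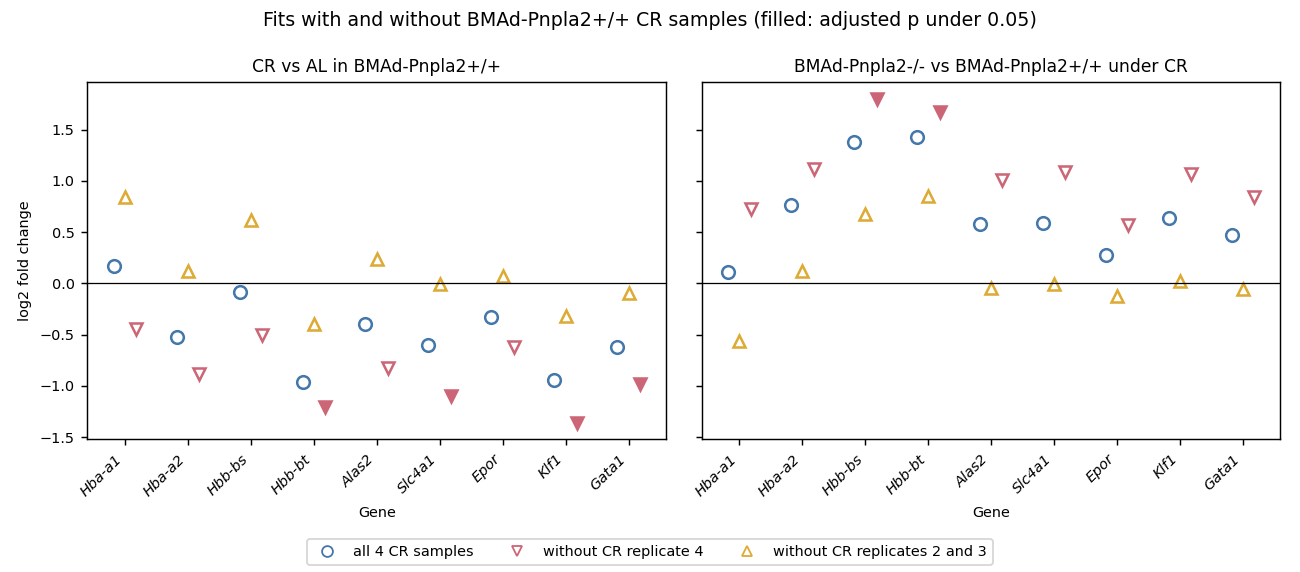
Log2 fold change of the 9 genes with all BMAd-Pnpla2+/+ CR samples (circles), without replicate 4 (triangles down) and without replicates 2 and 3 (triangles up), with filled markers at padj under 0.05. Left, CR against AL in BMAd-Pnpla2+/+ mice, where the medians are -0.53, -0.88 and 0.07. Right, BMAd-Pnpla2-/- against BMAd-Pnpla2+/+ mice under CR, where the medians are 0.59, 1.06 and -0.01.

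Some marker lists of other marrow cells put replicates 2 and 3 of BMAd-Pnpla2+/+ CR at the top or bottom of their group, and others did not. In these mice 15.1% of all genes were called higher with CR and 10.9% lower, and the counts of markers below stand beside those shares. The summed level of the 10 adipocyte markers was 1100 to 2304 CPM in BMAd-Pnpla2+/+ AL, 2702 to 6660 in BMAd-Pnpla2+/+ CR, 618 to 1210 in BMAd-Pnpla2-/- AL and 1940 to 3060 in BMAd-Pnpla2-/- CR, and 9 of the 10 rose with CR in BMAd-Pnpla2+/+ mice. In BMAd-Pnpla2+/+ CR it was highest in replicates 2 and 3, at 6521 and 6660 CPM, and lowest in replicate 4, at 2702. Replicate 1, at 5343 CPM, lay nearer to replicates 2 and 3 than to replicate 4. The 10 neutrophil markers summed to 23004, 13246, 14415 and 24692 CPM in those 4 replicates, and to 26842 to 35278 CPM fed AL, with 6 of 10 lower under CR. The 10 cell division genes summed to 2545, 1437, 1100 and 3345 CPM, with 6 of 10 lower. Among the other lists in BMAd-Pnpla2+/+ mice, 6 of 11 B progenitor markers fell with CR, and 3 of 10 macrophage and 5 of 9 osteoblast markers rose. In BMAd-Pnpla2+/+ CR replicates 1 to 4 the B progenitor markers summed to 584.5, 668, 578 and 638.5 CPM and the osteoblast markers to 5717, 5057, 2171 and 1329 CPM, and neither list set replicates 2 and 3 apart from the other 2. The macrophage markers summed to 2177, 2647, 2741 and 2318 CPM and the megakaryocyte markers to 2411, 1774, 1189 and 2053 CPM, with replicates 2 and 3 the highest and the lowest of the 4, respectively. No marker was at 0 in any sample except for 1 of the B progenitor list in BMAd-Pnpla2+/+ CR and 1 of the megakaryocyte list in BMAd-Pnpla2-/- AL. The part of these other cells in the erythroid values was not tested.

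The wider erythroid pathway was read from 6 lists of 89 genes, of which 83 were tested. With CR, 9 fell and 2 rose in BMAd-Pnpla2+/+ mice, against backgrounds of 10.9% lower and 15.1% higher among all genes, and 73 of the 83 values were negative, with a median of -0.56. In BMAd-Pnpla2-/- mice 3 fell and 2 rose, against 5.57% and 6.04%, and the median was -0.10, or -0.20 over 84 genes with second-strand counts. In neither genotype comparison was a listed gene called. Without BMAd-Pnpla2+/+ CR replicate 4, 50 of the 83 fell and 2 rose in BMAd-Pnpla2+/+ mice. That fit called 2785 of 17618 genes lower and 3244 higher. Without replicates 2 and 3, 2 of 84 fell, in a fit that called 163 of 17939 genes lower, and the median of the 84 was -0.08.

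Of 18 membrane and cytoskeleton genes, none was called in any comparison, although 16 of 18 values were negative for CR in BMAd-Pnpla2+/+ mice. *Rhd*, a Rh blood group protein, had -0.78 ± 0.39 (SE; padj = 0.153), *Tmod1*, which caps actin filaments, -0.74 ± 0.38 (padj = 0.164), and ankyrin gene *Ank1* -0.75 ± 0.39 (padj = 0.17). The most abundant, *Epb41*, encoding protein 4.1, had -0.12 ± 0.33 (padj = 0.806). Of the 4 embryonic globin genes, the highest count in any sample was 18, and none was tested. The θ globin genes *Hbq1a* and *Hbq1b* had -0.59 ± 0.39 (padj = 0.268) and -0.65 ± 0.43 (padj = 0.274).

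Of 21 haem and iron genes, 3 fell and 1 rose with CR in BMAd-Pnpla2+/+ mice. *Aco1*, which as iron regulatory protein also controls iron-related transcripts, rose from 52.6 to 86.8 CPM, by 0.72 ± 0.13 (SE; padj = 0.003), and rose in BMAd-Pnpla2-/- mice by 0.52 ± 0.15 (padj = 0.0366). Its groups did not overlap in BMAd-Pnpla2-/- mice, as was so in this direction for 20.5% of all genes there. *Steap3*, the ferrireductase of transferrin uptake, fell from 100.1 to 59.4 CPM, by 0.75 (padj = 0.00884), in BMAd-Pnpla2+/+ mice. In BMAd-Pnpla2-/- mice it had -0.10 ± 0.19 (padj = 0.789), and the response there was higher by 0.66 ± 0.26 (padj = 0.413). *Blvrb*, biliverdin reductase B, fell by 0.86 (padj = 0.0448). In BMAd-Pnpla2-/- mice the other gene that rose was *Ireb2*, by 0.45 ± 0.12 (padj = 0.0347). *Blvrb* and *Ireb2* are named because these counts are small, after their values were seen. The most abundant gene of the list, the mitochondrial iron importer *Slc25a37*, had -0.61 ± 0.37 (padj = 0.236) in BMAd-Pnpla2+/+ mice.

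Of 16 transcription factor genes, 4 fell under CR in the BMAd-Pnpla2+/+ genotype, and 2 of these also fell in the other. *Myb*, a regulator of early progenitors, fell from 188 to 87.1 CPM, by 1.11 (padj = 0.00185), in BMAd-Pnpla2+/+ mice and from 177 to 95.9 CPM, by 0.89 (padj = 0.0168), in BMAd-Pnpla2-/- mice. The groups did not overlap in BMAd-Pnpla2-/- mice, as was so in this direction for 17.4% of all genes there. The corepressor gene *Cbfa2t3* fell by 0.40 (padj = 0.0134) and by 0.61 (padj = 0.0098), again without overlap in BMAd-Pnpla2-/- mice. *Bcl11a*, a repressor of embryonic globin genes, fell by 0.55 (padj = 0.0191) and *Lmo2*, named after its value was seen, by 0.59 (padj = 0.0341) in BMAd-Pnpla2+/+ mice. *E2f2*, the most abundant, had -0.56 ± 0.32 (padj = 0.2). These factors are also expressed in progenitors and lymphoid cells, so they are not particular to the erythroid lineage.

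Of 9 erythropoietin signalling genes, *Kit*, the stem cell factor receptor of early progenitors and mast cells, rose from 130.2 to 249 CPM with CR in BMAd-Pnpla2+/+ mice, by 0.93 ± 0.20 (SE; padj = 0.0075). *Erfe*, the erythroid hormone that lowers hepcidin, fell by 1.23 (padj = 0.0439) at a low level of 2.55 CPM fed AL and 1.09 CPM under CR, with overlap. The kinase gene *Pim1* had -0.48 ± 0.18 (padj = 0.0621), and *Bcl2l1*, an antiapoptotic gene and the most abundant of the list, -0.41 ± 0.26 (padj = 0.249). Of 17 tested maturation genes, *Alox15*, a lipoxygenase of reticulocytes and eosinophils, fell by 0.96 (padj = 0.0478) in BMAd-Pnpla2+/+ and by 1.73 (padj = 0.017) in BMAd-Pnpla2-/- mice. *Gpx1* had -0.60 ± 0.25 (padj = 0.0882) and *Tspo2*, encoding an erythroid membrane protein, -1.001 ± 0.47 (padj = 0.125).

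**Figure D5:**
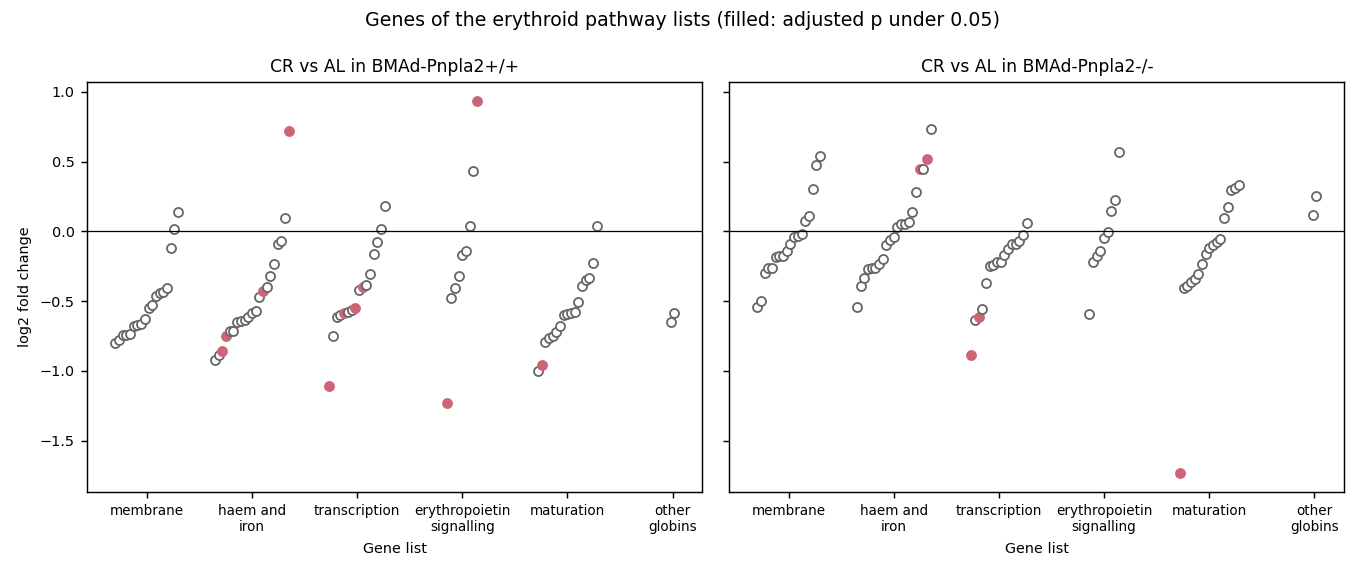
Log2 fold change of CR against AL for each tested gene of the 6 erythroid lists (points, ordered by value within a list) in BMAd-Pnpla2+/+ (left) and BMAd-Pnpla2-/- mice (right), with filled points at padj under 0.05. The medians over the 83 genes are -0.56 and -0.10, and 9 of 83 and 3 of 83 points are filled below 0.

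Across the 14 samples, the 5 genes outside the globins varied together. Pearson's r of log2 CPM between any pair of *Alas2*, *Slc4a1*, *Epor*, *Klf1* and *Gata1* was 0.942 to 0.991, with the highest value for *Slc4a1* and *Gata1*. Pairs that included a globin gene ranged from 0.609 for *Hba-a1* with *Hbb-bt* to 0.888 for *Hba-a2* with *Gata1*. The genes most like *Klf1* among 13052 genes averaging 50 counts or more were *Ank1* (r = 0.991), *Hemgn* (0.991), *Ubac1* (0.99), *Trim10* (0.99) and *Sptb* (0.989). Those most like *Hbb-bs* were *Ccrl2* (r = 0.951), *Ube2k* (0.939), *E2f6* (0.936), *Api5* (0.936) and AC154279.1 (0.932). The points of these correlations share libraries and library type, and the values describe these 14 samples only.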

How the data were processed

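The authors sequenced RNA of pooled distal tibial plugs as read pairs from stranded libraries, per the labels, and the submitters' notes name FastQC 0.11.9, STAR, DESeq2 and the mm10 build. The authors deposited whole-number counts per gene, without strand and for each strand, and a matrix of counts that equals the second-strand count in 11 samples and the unstranded count in the 3 BMAd-Pnpla2-/- CR samples. Here unstranded counts of 14 samples were scaled by TMM, filtered by filterByExpr and fitted in 1 model of 4 groups with edgeR 4.0.16 in R 4.3.3 (robust quasi-likelihood test, two-sided, Benjamini-Hochberg adjustment over 17671 genes, padj threshold 0.05). P-values measure the spread between samples pooled from mice. The fit was tested on simulated data. Of 55401 gene identifiers, 55141 matched a symbol without version. Members, lists and the rule for named genes were chosen with earlier results of these data known. The rule took the members, *Pnpla2*, from each list the 3 smallest p-values for CR in BMAd-Pnpla2+/+ mice and the most abundant gene, and the 5 genes most correlated with *Hbb-bs* and with *Klf1*. Alternatives were the deposited matrix, strand, scaling, the filter, DESeq2 1.42.0, the groups fitted, a replicate block, each sample left out, and an added fold criterion. The values of 1 gene named by the rule are not reported here.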

Additional observations from a re-analysis of the deposited data

Results flagged for a closer look

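In BMAd-Pnpla2+/+ AL, replicate 1 stood apart in the share of gene counts taken by the 4 haemoglobin genes, at 1.49% against 2.50% for the nearest of the other 3 samples. The gap was 0.876 of the group's range, above the critical value for 4 samples. It was the 1 such value among 28 sets of 4 values examined in this way, and chance alone gives about 1 in 20. In this replicate the summed level of adipocyte markers was 2304 CPM, against 1100 to 1291 CPM in the other 3, and its part in the low share was not tested.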

How the results depend on the processing

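The number of the 9 genes called was 0 in each comparison and stayed at 0 in 110 of 116 alternative fits chosen at the start. With the deposited matrix, in which library types were counted differently, 1 gene (*Hbb-bt*) was called between the genotypes under CR. With DESeq2, 1 gene (*Hbb-bt*) was called for CR in BMAd-Pnpla2+/+ mice and 2 (*Hbb-bs* and *Hbb-bt*) between the genotypes under CR. Among all 17671 genes, DESeq2 called 5603 in the former comparison and 1608 in the latter. Leaving out each sample in turn gave 0 to 4 genes for CR in BMAd-Pnpla2+/+ mice and 0 to 2 between the genotypes under CR, with the highest counts in both without BMAd-Pnpla2+/+ CR replicate 4. Without BMAd-Pnpla2+/+ CR replicates 2 and 3, a choice made after seeing the data, 1 gene (*Hbb-bs*) was called for CR in BMAd-Pnpla2-/- mice. In that comparison the fit called 3014 of 17939 genes. Same-numbered samples of different groups had deviations correlated from -0.502 to 0.491, so the numbers were not taken as pairs. The replicate block gave 0 genes in all 5 comparisons. It moved the count of all genes from 4602 to 4253 for CR in BMAd-Pnpla2+/+ mice, and 5 of 14 samples correlated best with their own number. No called value changed sign. Uncalled signs changed in 31 of 1039 values of the 9 genes refitted under alternatives chosen at the start and in 18 of 63 under those chosen after seeing the data, the cause of which was not tested. Counts of all genes moved more: between the genotypes under CR from 2 to 2451 with the deposited matrix, 1608 with DESeq2, 0 with the compared groups alone, 111 without the filter, 3432 with second-strand counts and 2112 without BMAd-Pnpla2+/+ CR replicate 4, and for CR in BMAd-Pnpla2+/+ mice from 4602 to 438 without replicates 2 and 3 of that group. For CR in BMAd-Pnpla2-/- mice the count moved from 2052 to 3898 with the matrix, 3147 with DESeq2, 4824 with second-strand counts and 243 to 2435 with each sample left out. In the controls it was 2742 with the compared groups alone and 2228 to 6029 with each sample left out. The genotypes fed AL differed for 18 genes with DESeq2, and the responses for 678 with the matrix, 58 with DESeq2 and 1377 with second-strand counts, against 0 and 0. Of the wider erythroid genes, the 11 called for CR in BMAd-Pnpla2+/+ mice became 18 with DESeq2, 6 with the compared groups alone and 5 to 52 with each sample left out, and the 0 called between the genotypes under CR became 6 with the matrix, 8 with DESeq2 and 7 with second-strand counts. With an absolute log2 fold change over 1 also required, 1639 genes remained for CR in BMAd-Pnpla2+/+ mice. Read depth was not varied, so its part in these limits was not tested.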
